A study of Mus musculus with 29 samples.

Results

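Genes of sterol and fatty acid synthesis were followed through the differentiation of mouse embryonic stem cells towards midbrain neurons, in cells labelled wild type (WT) and in cells labelled BERKO, the name of a knockout of oestrogen receptor beta (ERβ, gene Esr2). The set was a list of 34 genes named for their place in these pathways. It was chosen with earlier results of these data known. A gene was followed through the array cluster, the set of probes that stands for a transcript, that carries its symbol and no other, and through the brightest such cluster where there were several. Such a cluster was found for 29 of the 34 genes, among 30142 genes in all. They were 7 enzymes of the isoprenoid steps (Hmgcs1, Mvk, Pmvk, Mvd, Idi1, Fdps and Ggps1), 9 enzymes from squalene to cholesterol (Fdft1, Sqle, Lss, Cyp51, Nsdhl, Hsd17b7, Ebp, Sc5d and Dhcr7), 5 regulators and a sterol carrier among them (Srebf2, Scap, Insig1, Insig2 and Stard4), and 8 fatty acid enzymes (Acly, Acaca, Fasn, Scd1, Elovl5, Elovl6, Fads1 and Fads2). Acat2, to which no cluster was matched, and Tm7sf2, Msmo1, Srebf1 and Scd2, whose clusters carry several symbols, were not analysed here.

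Cells build cholesterol from acetyl-CoA through mevalonate, isoprenoid units, farnesyl diphosphate and squalene, which is closed to lanosterol and then trimmed to cholesterol. Cytosolic acetyl-CoA also feeds fatty acid synthesis, in which carboxylation and chain growth make palmitate, and elongases and desaturases then lengthen the chain and add double bonds. SREBP2, made from Srebf2, is the main transcription factor of the sterol genes, and SREBP1, made from Srebf1, that of the fatty acid genes. SCAP escorts both to their activation when membrane sterol is low, and INSIG proteins hold SCAP back when it is high. The brain makes nearly all of its own cholesterol, since lipoproteins of the blood do not cross into it.

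The 29 arrays formed 14 groups. Embryonic stem cells (mESC) grew without feeder cells in medium with LIF, with 2 arrays per genotype label. Neural precursor cells (NPC) grew in N2 medium with FGFb on laminin, and midbrain neural precursors (mDPC) received FGF8b, Shh and ascorbic acid besides FGFb. Both stages had 2 arrays for each combination of genotype label and treatment, which was the ERβ agonist LY3201 at 0.5 nM for 4 days or its DMSO vehicle, called untreated here. Cells of the last stage (MN, midbrain neurons) matured in N2 medium with ascorbic acid, with 2 WT arrays of either treatment, 3 untreated BERKO arrays and 2 BERKO arrays with LY3201. The strain, how long MN cells were treated, the part of Esr2 that was removed and the number of clones were not given in the labels. MN names the stage and not a measured content of neurons.

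Each array was made from 150 ng of RNA. Values are the authors' log2 signals, in which 1 unit is a doubling. The array medians lay between 3.52 and 3.74, and the 95th percentile of the negative control probe sets between 6.63 and 7.66. All 29 members were among the 22063 genes tested, and all but Ebp exceeded that percentile of their array in at least 2 arrays. Dhcr7 did so in 6 arrays, Mvk in 8, Hsd17b7 in 10, Stard4 in 11, Pmvk and Mvd in 15, Insig2 in 19 and Lss in 27. Esr2 lay between 3.21 and 3.47 in the 14 arrays labelled WT and between 3.8 and 4.46 in the 15 labelled BERKO, so its signal was higher under the knockout label. All of these Esr2 values lie under the negative control percentile, and whether they bear on the labels could not be settled. WT and BERKO therefore stand for the arrays so labelled throughout. Where the probes lie relative to the removed part was not known. A number recurs in the titles of both BERKO arrays of mESC, and another in those of both LY3201-treated WT arrays of NPC. The design text calls the arrays biological replicates, and the p-values measure the spread between these arrays.

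Promoter windows of the members ran from 250 bases before to 50 bases after the RefSeq transcript start (assembly GRCm38.p6). They were available for 23 of the 29 genes. They are described because most of the sterol enzymes among them moved together, as given further on. The stretches below are the 150 bases before the start in the direction of the gene, 5′ to 3′. Capitals mark the letters CCAAT or, for the other strand, ATTGG, which is the box bound by NF-Y, a factor known to act beside SREBP, and matches to TCACNCCAC, a form of the SREBP element. Hmgcs1 is shown because its window was the 1 of the 23 with TCACNCCAC, Nsdhl, Mvk and Ebp as sterol genes that are described for different directions of change, and Fasn as a fatty acid gene. They lie at chr13:119690201-119690350 (plus strand), chrX:72918371-72918520 (plus), chr5:114444119-114444268 (plus), chrX:8193513-8193662 (minus) and chr11:120824548-120824697 (minus), in that order.
Hmgcs1: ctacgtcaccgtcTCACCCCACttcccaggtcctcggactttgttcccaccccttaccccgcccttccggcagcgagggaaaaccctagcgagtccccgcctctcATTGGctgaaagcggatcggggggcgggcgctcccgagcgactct
Nsdhl: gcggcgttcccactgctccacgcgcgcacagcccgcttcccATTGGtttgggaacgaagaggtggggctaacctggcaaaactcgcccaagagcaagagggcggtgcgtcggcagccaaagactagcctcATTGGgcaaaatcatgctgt
Mvk: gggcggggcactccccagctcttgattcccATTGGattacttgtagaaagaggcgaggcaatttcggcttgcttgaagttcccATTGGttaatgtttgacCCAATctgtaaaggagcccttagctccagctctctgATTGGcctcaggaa
Ebp: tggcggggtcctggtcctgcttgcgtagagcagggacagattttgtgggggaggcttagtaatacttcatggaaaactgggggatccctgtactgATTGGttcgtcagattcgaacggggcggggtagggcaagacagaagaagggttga
Fasn: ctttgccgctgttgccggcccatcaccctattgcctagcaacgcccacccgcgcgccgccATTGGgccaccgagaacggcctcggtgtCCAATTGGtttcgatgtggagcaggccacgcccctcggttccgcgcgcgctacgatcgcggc
In Fasn, a CCAAT and an ATTGG share letters and were counted as separate matches. Over whole windows and both strands, CCAAT was found in 13 of 13 sterol enzymes, 3 of 4 regulators and 3 of 6 fatty acid enzymes, which made 19 of 23 members (82.6%). The 13 include Sc5d, Hsd17b7, Ggps1 and Ebp, which did not follow the mean of the sterol enzymes over the groups. The same letters were found in 42.4% of the 13032 tested genes with a window. TCACNCCAC was found in 4.35% of members and in 1.46% of tested genes. Acaca, Elovl6, Fads2 and Scap had none of these letters in their windows. A match is a description of the letters and not a binding site.

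From mESC to NPC most members rose. In untreated WT cells 21 of the 29 rose and 3 fell by limma at an adjusted p below 0.05, at a step where 62.9% of all tested genes were called (27.9% higher and 35% lower). The desaturases Fads1 and Fads2, which add double bonds to polyunsaturated chains, Scd1, which makes oleate from stearate, and Hmgcs1, which makes the HMG-CoA that enters the mevalonate pathway, rose most. The elongase Elovl6, the sterol isomerase Ebp and Acly, which makes cytosolic acetyl-CoA from citrate, fell. In bulk RNA, fewer cells of a type and less RNA per cell cannot be told apart.

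Fads2 read 10.30 in both WT mESC arrays and 16.07 and 15.99 in WT NPC, a difference of 5.73 ± 0.12 (SE, n = 2 arrays per group, as in all groups but untreated MN labelled BERKO with n = 3; limma adjusted p = 8.62e-19). The groups lay far apart, and every later array of either label stayed far above every mESC array. Hmgcs1 read 14.22 and 14.13 in WT mESC and 17.13 and 17.08 in WT NPC, a rise of 2.94 ± 0.12 (adjusted p = 3.45e-14). The sterol carrier Stard4 read 6.30 and 6.14, then 8.27 and 8.37, a rise of 2.10 ± 0.10 (adjusted p = 1.63e-13), and the groups did not overlap, as for 81.7% of all genes. Fads1 rose by 4.16, Scd1 by 3.76, the SCAP anchor Insig1 by 2.64 and the lanosterol demethylase Cyp51 by 2.26. Of the 16 sterol enzymes, 12 rose and 1 fell, with a median difference of 0.65, and of the 8 fatty acid enzymes 4 rose and 2 fell, with a median of 0.83, against a median over all tested genes of -0.04. Elovl6, which carries palmitate to stearate, read 14.34 and 14.46 in WT mESC and 12.57 and 12.72 in WT NPC, a fall with a difference of -1.76 ± 0.12 (adjusted p = 5.2e-11). Ebp fell with a difference of -1.07 and Acly with one of -0.66.

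In BERKO cells the same step carried 24 rises and 2 falls among the 29, against 63.5% of all genes called (27.7% higher and 35.9% lower). The falls were again Elovl6 (-1.06) and Ebp (-1.02). The median over the sterol enzymes was 1.5 and over the fatty acid enzymes 0.94, against -0.10 over all genes, a median that quantile normalization of the arrays moved to 0.01. There 15 of 16 sterol enzymes rose. The members called in the same direction in both genotype labels numbered 22, against 55.1% of all genes.

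From NPC to mDPC the direction turned. In untreated WT cells 22 members fell and 3 rose, against 30.4% of all genes called (14.6% higher and 15.8% lower). Of the sterol enzymes 14 fell and 0 rose, with a median of -1.59, and of the fatty acid enzymes 5 fell and 2 rose, with a median of -0.78, against 0.02 over all genes. Farnesyl diphosphate synthase Fdps read 10.70 and 11.03 in WT NPC and 7.92 and 7.74 in WT mDPC, without overlap (as for 64.8% of all genes), a difference of -3.03 ± 0.14 (limma adjusted p = 4.93e-12). Nsdhl, which removes carbons from the sterol ring, read 10.44 and 10.54 and then 7.88 and 7.82, a difference of -2.64 ± 0.09 (adjusted p = 3.15e-14). In both enzymes the WT mDPC arrays also lay below the WT mESC arrays.

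The other falls included Scd1 (-3.24), Insig1 (-2.81), Elovl6 (-2.69), the isomerase Idi1 (-2.29), the lanosterol synthase Lss (-2.19), Stard4 (-2.05), the squalene synthase Fdft1 (-1.89) and Srebf2 (-1.45). Fads2 was an exception that rose again, from 16.07 and 15.99 to 17.46 and 17.58, a difference of 1.49 ± 0.12 (adjusted p = 1.18e-08). Fads1 (0.40) and Scap (0.25) rose as well, by less. In BERKO cells 22 members fell and 3 rose, where 35.4% of all genes were called (16.5% higher and 18.9% lower). The falls were led by Scd1 (-4.27), Fdps (-3.93) and mevalonate kinase Mvk (-3.02), and the rises were Fads2 (0.81), Insig2 (0.36) and Ggps1 (0.35). The 2 steps share the NPC arrays, so that a value high in NPC enters both. The members called in the same direction in both labels numbered 23, against 21.9% of all genes.

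From mDPC to MN the members split. In untreated WT cells 13 rose and 5 fell, against 42% of all genes called (18% higher and 24% lower). Hsd17b7, a ketosteroid reductase of the sterol pathway, read 6.16 and 5.78 in WT mDPC and 8.54 and 8.46 in WT MN, a rise of 2.53 ± 0.21 (limma adjusted p = 9.5e-09). At the earlier stages every WT array of this gene had stayed below 7. Scd1 rose by 1.79, squalene epoxidase Sqle, a rate-setting enzyme, by 1.30, Ebp by 1.16, Fdps by 1.10 and fatty acid synthase Fasn by 0.88. Cyp51 (-0.94), Fads2 (-0.82), Elovl5 (-0.75), Fads1 (-0.72) and the decarboxylase Mvd (-0.49) fell. In BERKO cells 13 rose and 8 fell, against 50.9% of all genes called (20.1% higher and 30.8% lower), with Hsd17b7 (2.55), Scd1 (1.44) and Sqle (1.33) as the largest rises and Cyp51 (-1.40) as the largest fall. The members called in the same direction in both labels numbered 14, against 33.3% of all genes.

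**Figure D1:**
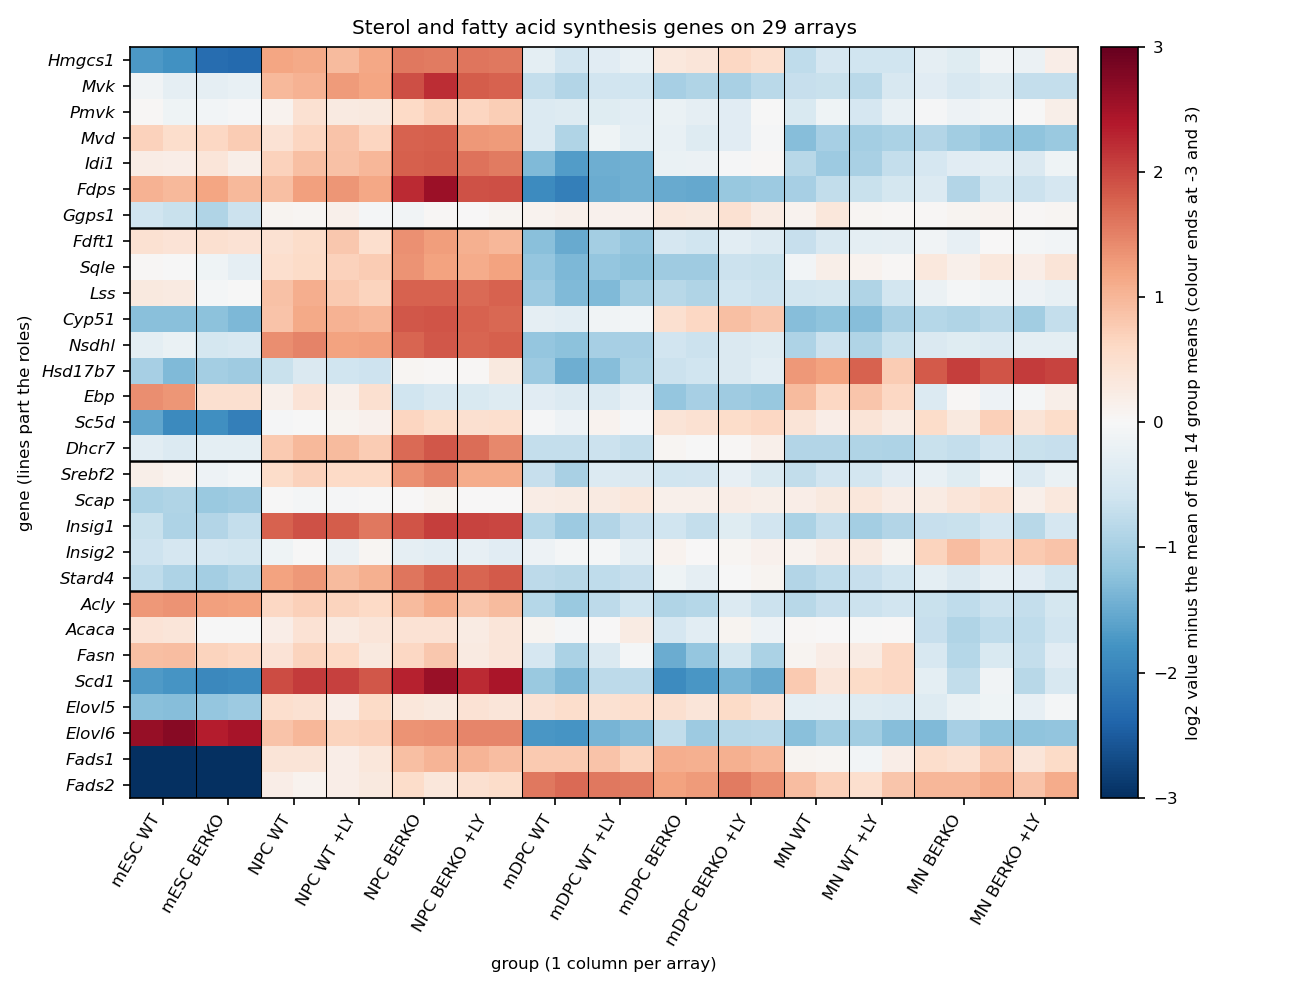
Log2 value of each of the 29 genes (rows, grouped by role and parted by lines) in each of the 29 arrays (columns, ordered by stage, genotype label and treatment), minus the mean of that gene over the 14 group means, with the colour scale running from -3 to 3. Most sterol rows are high in the NPC columns and low in mDPC, while Fads1 and Fads2 are low in mESC and high at every later stage.

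Markers of proliferation and of several cell types moved over these steps as well. The mean level of 9 proliferation markers lay between 12.73 and 12.84 in mESC, between 10.91 and 11.13 in untreated WT NPC, between 6.72 and 6.77 in untreated WT mDPC and between 8.45 and 8.70 in untreated WT MN. Of these markers 9 fell from NPC to mDPC and 9 rose from mDPC to MN in WT. The 10 pluripotency markers averaged 12.99 to 13.09 in mESC and 3.87 to 4.33 later. In untreated WT arrays the neural progenitor markers averaged 7.25 to 7.42 in mESC and 11.40 to 11.44 in NPC, and the astrocyte markers 4.80 to 4.87 in mESC, 8.88 to 8.98 in NPC and 11.04 to 11.05 in mDPC. From WT mDPC to WT MN the ependymal markers went from between 3.79 and 3.86 to between 6.44 and 6.57 (9 of 9 rose), the oligodendrocyte lineage markers from between 6.0 and 6.01 to between 8.18 and 8.63 (5 of 8 rose, 1 fell) and the mesenchymal markers from 5.26 to between 7.19 and 7.24 (7 of 10 rose, 1 fell). Dopaminergic markers averaged 4.00 to 4.38, and 0 of them exceeded the negative control percentile. The part of these markers in the changes of the sterol and fatty acid genes was not tested.

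**Figure D2:**
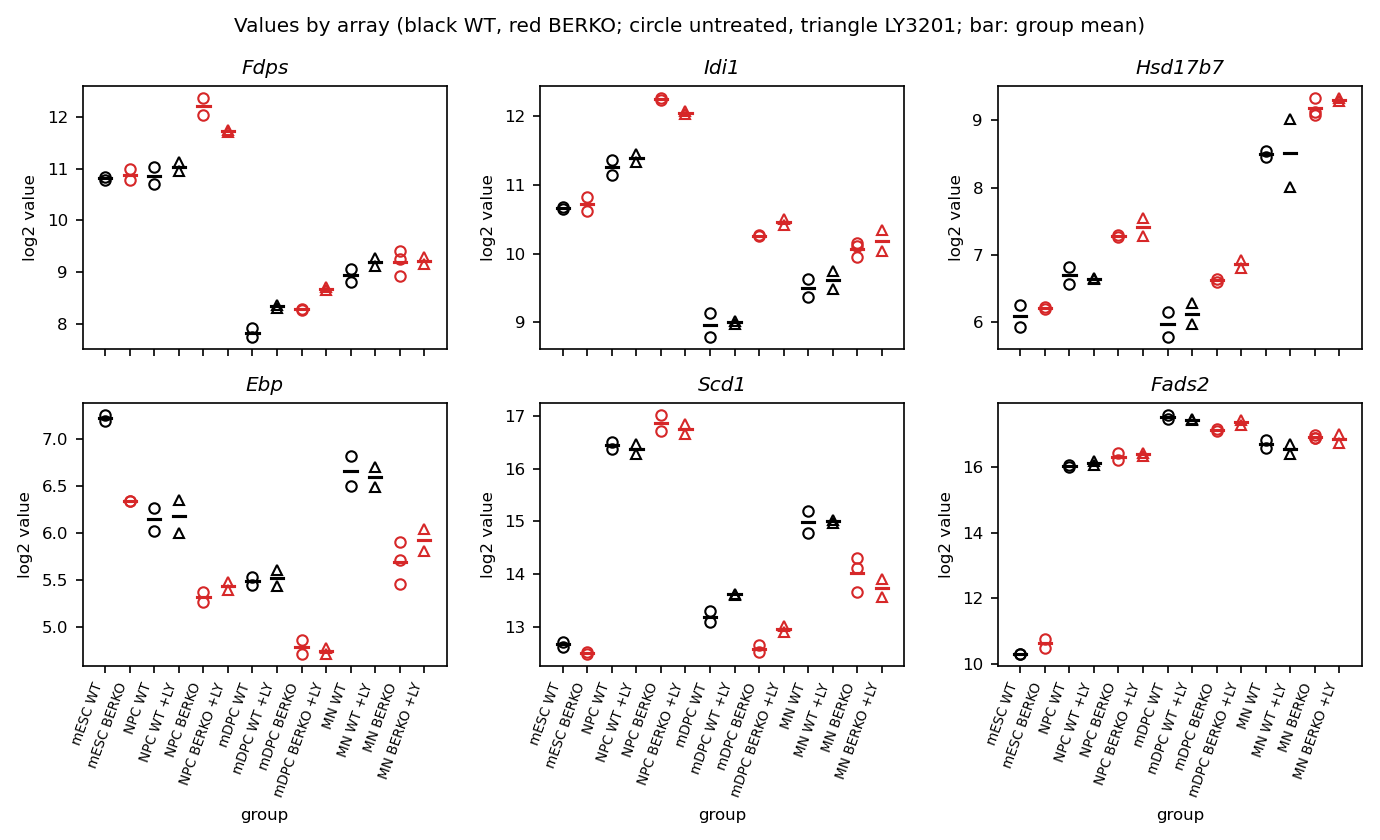
Log2 value of Fdps, Idi1, Hsd17b7, Ebp, Scd1 and Fads2 in every array by stage, with black for WT and red for BERKO labels, circles for untreated and triangles for LY3201, and bars for group means. Idi1 peaks in NPC under both labels. Fdps peaks there in the BERKO arrays, while its untreated WT arrays of NPC overlap those of mESC. In NPC the BERKO arrays of both genes lie above the WT arrays, while the BERKO arrays of Ebp lie below the WT arrays at all 4 stages.

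The size of a step differed between the genotype labels for some members, tested as the step in BERKO minus the step in WT. From mESC to NPC this difference was called for 17 members, all positive, against 9.6% of all genes (6.35% positive and 3.25% negative). Among the sterol enzymes 12 of 16 were called, with a median difference of 0.87 against 0.00 over all genes, and among the fatty acid enzymes 3 of 8 (Elovl6, Acaca and Acly), with a median of 0.48. The largest were Fdps (1.27 ± 0.20, limma adjusted p = 0.000387), Mvd (1.16 ± 0.21, adjusted p = 0.000991), Mvk (1.12 ± 0.15, adjusted p = 7.82e-05), Lss (1.11 ± 0.15, adjusted p = 8.66e-05) and Srebf2 (1.09 ± 0.16, adjusted p = 0.000159). After quantile normalization 12 members were called, all positive. Of the 9 proliferation markers 7 were also called positive for this step, and their part in the result was not tested.

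From NPC to mDPC the difference was called for 8 members, all negative, against 8.68% of all genes (3.68% positive and 4.99% negative). They were Mvk (-1.22 ± 0.15, limma adjusted p = 2.88e-05), Scd1 (-1.02), Mvd (-0.90), Fdps (-0.90), Fads2 (-0.68), Srebf2 (-0.58), Sqle (-0.56) and Acaca (-0.53). Without WT NPC replicate 1 the count was 2, without WT mDPC replicate 1 it was 3, without BERKO NPC replicate 2 or BERKO mDPC replicate 1 it was 4, and without BERKO NPC replicate 1 it was 5. From mDPC to MN it was called for 5, against 12.5% of all genes (7.31% positive and 5.15% negative), namely Elovl6 (-0.88), Idi1 (-0.72), Dhcr7 (-0.50), Cyp51 (-0.46) and Fads2 (0.61). Without WT mDPC replicate 2, BERKO mDPC replicate 1 or WT MN replicate 2 this count was 3. A second cluster of Fads2 showed a smaller step difference. It averaged 17.33 in mDPC and 16.47 in MN in WT, and 17.15 and 16.60 in BERKO. The proliferation markers were called negative, 9 of 9, for the step to mDPC and positive, 9 of 9, for the step to MN.

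In untreated NPC 12 of the 16 sterol enzymes were higher in BERKO than in WT. Of the 29 members 17 were higher and 1 was lower, against 15.7% of all genes called (10.6% higher and 5.08% lower). By role, 5 of 7 isoprenoid enzymes were higher, 7 of 9 enzymes from squalene to cholesterol were higher and 1 lower, 2 of 5 regulators were higher, and 3 of 8 fatty acid enzymes were higher. The median difference was 0.76 over the sterol enzymes and 0.32 over the fatty acid enzymes, against 0.03 over all genes.

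Fdps read 10.70 and 11.03 in WT NPC and 12.04 and 12.36 in BERKO NPC, a difference of 1.34 ± 0.14 (limma adjusted p = 2.17e-06). Mvk read 7.76 and 7.85 in WT and 8.72 and 9.01 in BERKO, a difference of 1.06 ± 0.11 (adjusted p = 1.05e-06). Mvd, which makes isopentenyl diphosphate, read 7.86 and 8.06 in WT and 9.2 and 9.21 in BERKO, a difference of 1.25 ± 0.15 (adjusted p = 6.1e-06). In each of the 3 enzymes both BERKO arrays lay above both WT arrays, in a comparison where the groups of 59.1% of all genes did not overlap. Idi1, which interconverts the 2 isoprenoid units, differed by 1.00 ± 0.13 (adjusted p = 1.61e-05). Hmgcs1 differed by 0.41 ± 0.12, with an adjusted p of 0.0271 that rose to 0.777 after quantile normalization, where its difference was 0.10. Pmvk (0.38) and Ggps1 (-0.12), which makes geranylgeranyl diphosphate for protein prenylation and not for sterols, were not called.

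Among the later sterol enzymes, Dhcr7, which makes cholesterol from its last precursor, read 7.17 and 7.37 in WT NPC and 8.10 and 8.26 in BERKO NPC, a difference of 0.91 ± 0.09 (limma adjusted p = 5.94e-07). Cyp51 differed by 0.87, Fdft1 by 0.81, Lss by 0.78, Sqle by 0.74, the desaturase Sc5d by 0.63 and Nsdhl by 0.36. Hsd17b7 differed by 0.59 and was not called. Ebp, which shifts the double bond of the sterol ring, was the member that was lower: it read 6.02 and 6.26 in WT and 5.26 and 5.38 in BERKO, a difference of -0.82 ± 0.14 (adjusted p = 0.000454). All of these Ebp values lie under the 95th percentile of the negative controls.

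Of the regulators, Srebf2 read 11.25 and 11.39 in WT NPC and 12.08 and 12.22 in BERKO NPC, a difference of 0.83 ± 0.11 (limma adjusted p = 3.34e-05). Stard4, which moves cholesterol between membranes, differed by 0.45 ± 0.10 (adjusted p = 0.00293). Scap (0.08), Insig1 (0.14) and Insig2 (-0.22) were not called. Of the fatty acid enzymes, Fads1 (0.58), Elovl6 (0.43) and Acly (0.36) were higher, and Scd1 (0.42), Fads2 (0.28), Fasn (0.18), Acaca (0.11) and Elovl5 (-0.16) were not called. Quantile normalization gave 12 members higher and 4 lower: Hmgcs1, Nsdhl, Acly, Elovl6 and Fads1 were no longer called, and Ggps1, Insig2 and Elovl5 were called lower. Hmgcs1 lost its call without any 1 of the 4 arrays, Nsdhl without WT replicate 1 or BERKO replicate 2, Acly without those or WT replicate 2, Elovl6 without WT replicate 1 or either BERKO replicate, and Stard4 without BERKO replicate 2. Of the 18 calls, 12 were kept under each alternative setting and each left-out array, namely Mvk, Mvd, Idi1, Fdps, Fdft1, Sqle, Lss, Cyp51, Sc5d, Dhcr7 and Srebf2 as higher and Ebp as lower.

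**Figure D3:**
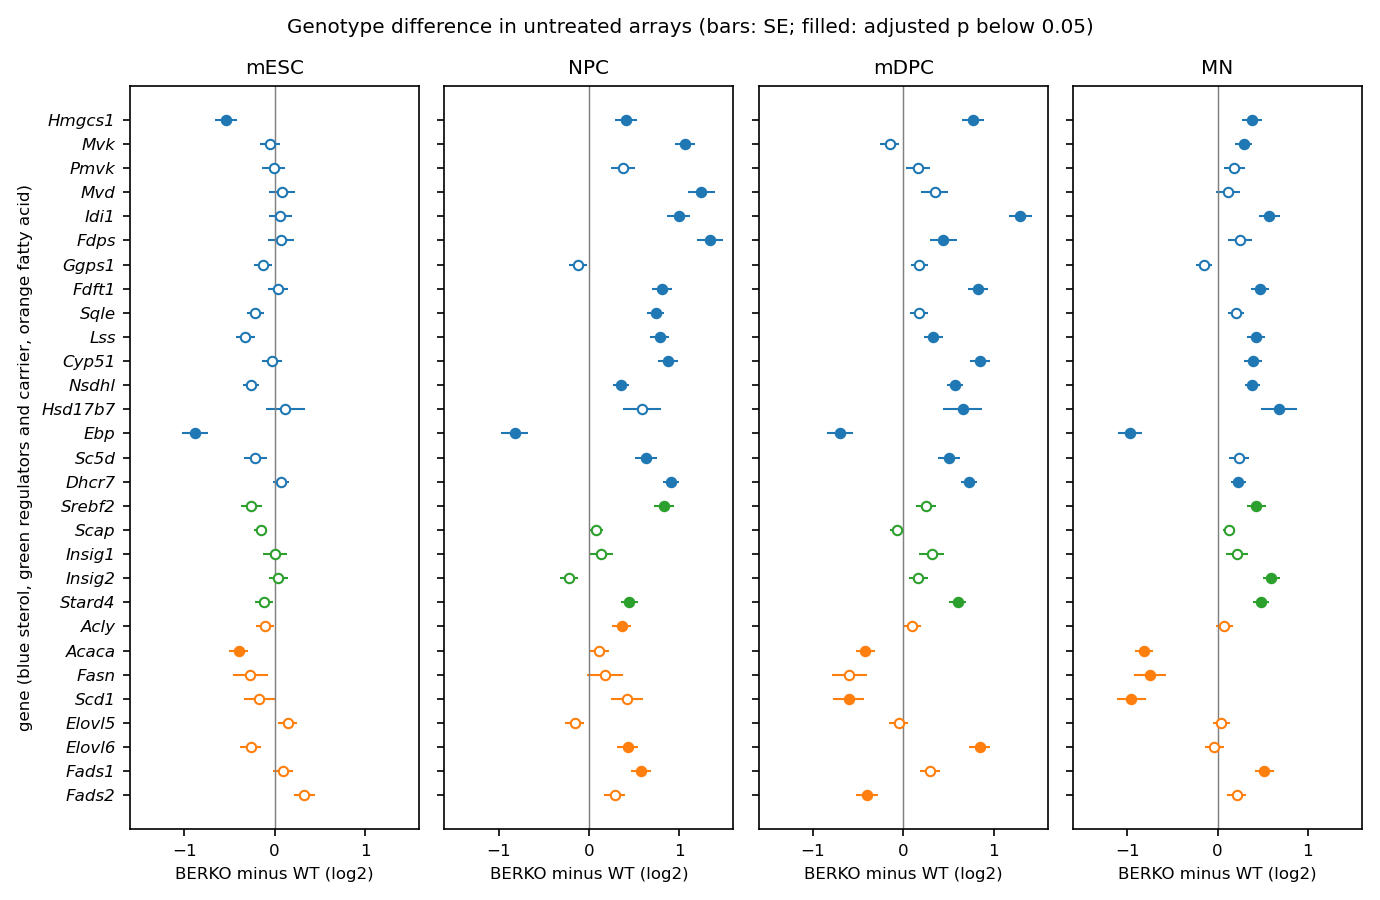
Difference between untreated BERKO and untreated WT arrays (log2, bars ± SE from limma) for each of the 29 genes at each of the 4 stages, blue for sterol enzymes, green for regulators and carrier, orange for fatty acid enzymes, with filled symbols for an adjusted p below 0.05. In NPC 17 genes are filled above 0 and 1 below, in mESC 3 are filled below 0, and in mDPC and MN the filled orange symbols lie mostly below 0.

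In untreated mDPC, 12 members were higher in BERKO and 4 were lower, against 13.8% of all genes called (8.51% higher and 5.32% lower). Here the branches parted: 10 of 16 sterol enzymes were higher and 1 lower, while 1 of 8 fatty acid enzymes was higher and 3 were lower. The medians were 0.48 over the sterol enzymes and -0.23 over the fatty acid enzymes, against 0.02 over all genes. Idi1 read 9.14 and 8.79 in WT mDPC and 10.25 and 10.27 in BERKO mDPC, without overlap, a difference of 1.30 ± 0.13 (limma adjusted p = 4.8e-07). Cyp51 differed by 0.85, Fdft1 by 0.83, Hmgcs1 by 0.77, Dhcr7 by 0.73, Stard4 by 0.60 and Nsdhl by 0.58. The smaller differences of Hsd17b7 (0.66, adjusted p = 0.0467), Fdps (0.45, adjusted p = 0.0463) and Lss (0.33, adjusted p = 0.0467) were not called after quantile normalization, nor without WT replicate 2, BERKO replicate 1 or BERKO replicate 2. That of Fdps was not called without WT replicate 1 either, and that of Sc5d (0.51) not without WT replicate 2 or BERKO replicate 2.

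Elovl6 was the fatty acid enzyme that was higher, at 9.96 and 9.94 in WT mDPC and 10.97 and 10.63 in BERKO mDPC, a difference of 0.85 ± 0.12 (limma adjusted p = 2.78e-05). Scd1 read 13.30 and 13.09 in WT and 12.52 and 12.66 in BERKO, a difference of -0.60 ± 0.17 (adjusted p = 0.0233). Acaca, which makes malonyl-CoA, differed by -0.42 and Fads2 by -0.40. A second cluster of Fads2, nearly as bright, showed a smaller difference, with means of 17.33 in WT and 17.15 in BERKO. The groups of all 4 enzymes did not overlap, as was the case for 55.1% of all genes. The call of Scd1 was lost without WT replicate 1 or either BERKO replicate (adjusted p = 0.0551 to 0.175), that of Acaca without WT replicate 1 or BERKO replicate 1 (0.107 and 0.155), and that of Fads2 without any 1 of the 4 arrays (0.0634 to 0.199). Without BERKO mDPC replicate 1, 10 of the 29 members were called in all. Ebp was lower again, at 5.53 and 5.45 in WT and 4.71 and 4.86 in BERKO, a difference of -0.70 ± 0.14 (adjusted p = 0.00197). Quantile normalization gave 9 members higher and 5 lower, with Fasn among the latter. The calls of Hmgcs1, Idi1, Fdft1, Cyp51, Nsdhl, Dhcr7, Stard4, Elovl6 and Ebp, 9 of the 16, were kept under each setting and left-out array.

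In untreated MN, 13 members were higher in BERKO and 4 lower, against 20.8% of all genes called (13.5% higher and 7.31% lower). Of the sterol enzymes 9 were higher and 1 lower, with a median of 0.27, and of the fatty acid enzymes 1 was higher and 3 were lower, with a median of 0.00, against 0.01 over all genes. Idi1 read 9.62 and 9.37 in WT MN and 9.95, 10.11 and 10.15 in BERKO MN, a difference of 0.57 ± 0.12 (limma adjusted p = 0.00122). The largest difference among the higher genes was that of Hsd17b7, at 0.68 ± 0.20 (adjusted p = 0.0168). Insig2, which retains SCAP, read 7.58 and 7.70 in WT and 8.14, 8.40 and 8.15 in BERKO, a difference of 0.60 ± 0.09 (adjusted p = 9.45e-05), and Stard4 differed by 0.49 and Srebf2 by 0.43.

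The lower genes had the larger differences. Ebp read 6.81 and 6.49 in WT MN and 5.45, 5.90 and 5.71 in BERKO MN, a difference of -0.97 ± 0.13 (limma adjusted p = 1.83e-05). Scd1 read 15.20 and 14.77 in WT and 14.13, 13.66 and 14.30 in BERKO, a difference of -0.96 ± 0.16 (adjusted p = 0.000164). Acaca read 9.87 and 9.84 in WT and 9.14, 8.92 and 9.07 in BERKO, a difference of -0.81 ± 0.10 (adjusted p = 4.03e-06). In all 3 genes every BERKO array lay below every WT array, and the groups of 44.1% of all genes did not overlap here. Fasn, which makes palmitate, differed by -0.75 ± 0.18 (adjusted p = 0.00508), while Fads1 differed by 0.52 in the other direction. Acly (0.07), Elovl6 (-0.04), Elovl5 (0.04) and Fads2 (0.21) were not called. A second, dimmer cluster of Scd1 averaged 7.93 in WT and 6.81 in BERKO. Quantile normalization gave 10 higher and 5 lower. The calls of Idi1, Lss, Insig2 and Stard4 as higher and of Ebp, Acaca and Scd1 as lower, 7 of the 17, were kept under each setting and left-out array. Without WT MN replicate 1 the count was 10, with Hmgcs1, Mvk, Cyp51, Nsdhl, Hsd17b7, Dhcr7 and Srebf2 no longer called, and without WT MN replicate 2 Mvk, Hsd17b7, Dhcr7 and Fasn (adjusted p = 0.0608) were not. Without BERKO MN replicate 1 Mvk and Dhcr7 lost their call, without replicate 2 Hsd17b7, and without replicate 3 Mvk, Dhcr7 and Hmgcs1.

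In mESC the labels differed in few members. Of the 29 members 0 were higher in BERKO and 3 were lower, against 4.21% of all genes called (1.68% higher and 2.53% lower). Ebp read 7.25 and 7.19 in WT mESC and 6.34 in both BERKO arrays, a difference of -0.88 ± 0.14 (limma adjusted p = 0.00131). Hmgcs1 (-0.53 ± 0.12, adjusted p = 0.0173) and Acaca (-0.40 ± 0.11, adjusted p = 0.0404) lost the call without any 1 of the 4 arrays, which left a count of 1. The median over the sterol enzymes was -0.04, and at an unadjusted p below 0.05 the members numbered 9, against 17.3% of all genes.

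Across the 3 untreated neural stages 8 members were higher in BERKO at each, namely Hmgcs1, Idi1, Fdft1, Lss, Cyp51, Nsdhl, Dhcr7 and Stard4, and 1, Ebp, was lower at each. Of all genes 1.66% were higher and 0.807% lower at each. Of these 9 genes, Idi1 and Ebp kept the call at all 3 stages under each alternative. The arrays treated with LY3201 gave a comparison of the genotype labels in other arrays. There 16 members were higher and 1 lower in NPC, against 10.4% of all genes called (4.56% higher and 5.81% lower), with Lss at 1.01 ± 0.11 (limma adjusted p = 2.11e-06) as the largest. In mDPC 12 were higher and 2 lower, against 15.3% (7.23% higher and 8.1% lower), with Idi1 at 1.46 ± 0.13 (adjusted p = 8.83e-08). In MN 8 were higher and 4 lower, against 19.6% (9.01% higher and 10.6% lower), with Scd1 at -1.25 ± 0.17 (adjusted p = 3.02e-05), Fasn at -0.96 and Acaca at -0.67. Without BERKO MN with LY3201 replicate 2 this last count of 12 was 7. Quantile normalization gave 21 higher and 1 lower in NPC and 12 higher and 4 lower in MN.

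The members called in the same direction with and without LY3201 numbered 16 in NPC, 13 in mDPC and 11 in MN, and 0 were called in opposite directions. Of all genes 7.06%, 9.46% and 11.4% were called in the same direction in both. Those 16 are of 18 untreated and 17 treated calls, the 13 of 16 and 14, and the 11 of 17 and 12. Hmgcs1, Idi1, Lss and Nsdhl were higher in all 6 comparisons, as were 0.92% of all genes, and Ebp was lower in all 6, as were 0.635%. Each of these 5 genes lost its call under some alternative in MN with LY3201, where the calls of Insig2, Acaca and Scd1 were kept under each. In LY3201-treated arrays the Ebp difference was -0.74 in NPC, -0.78 in mDPC and -0.67 in MN.

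Markers of other features moved with the genotype label too. The 9 proliferation markers averaged 11.81 to 11.90 in BERKO NPC against 10.91 to 11.13 in WT NPC, and 9.25 to 9.41 in BERKO MN against 8.45 to 8.70 in WT MN, with 9 of 9 called higher at both stages. In mDPC they averaged 5.53 to 5.63 in BERKO against 6.72 to 6.77 in WT, with 8 of 9 called lower. Mesenchymal markers averaged 5.18 to 5.29 in BERKO NPC against 7.17 in WT NPC, and 4.91 to 5.11 in BERKO MN against 7.19 to 7.24 in WT MN, with 7 of 10 called lower in NPC, 1 in mDPC and 9 in MN. Neuron markers averaged 6.87 to 7.12 in BERKO MN against 7.57 to 9.30 in WT MN, with all 10 called lower. Their mean was 6.71 to 6.73 in BERKO mDPC against 7.23 to 7.26 in WT mDPC. It was higher under the BERKO label in NPC, at 7.21 to 7.30 against 7.07 to 7.11. Astrocyte markers averaged 11.30 to 11.32 in BERKO mDPC against 11.04 to 11.05 in WT mDPC (4 of 10 called higher, 1 lower) and 11.53 to 11.59 in BERKO MN against 11.09 to 11.26 in WT MN (6 higher, 1 lower). Oligodendrocyte lineage markers averaged 6.56 to 6.64 in BERKO NPC against 6.17 to 6.22 in WT NPC (2 of 8 higher) and 6.68 to 6.79 against 6.0 to 6.01 in mDPC (4 of 8 higher). In MN, where they were highest, they averaged 7.79 to 8.26 in BERKO against 8.18 to 8.63 in WT, with overlap. Ependymal markers averaged 7.07 to 7.77 in BERKO MN against 6.44 to 6.57 in WT MN (6 of 9 higher, 2 lower). The part of these marker genes in the differences of the sterol and fatty acid genes was not tested.

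The sterol and fatty acid branches were then compared over all 14 groups. For each array, the mean over the 16 sterol enzymes and the mean over the 8 fatty acid enzymes were taken after the mean of the 14 group means had been subtracted from each gene, so that a value of 0 is a gene's average over the groups. The spread between arrays of 1 group in the gap between the branches (sterol minus fatty acid) was 0.0624 (pooled SD). These means are given as a description, with no test.

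In mESC the mean of the fatty acid branch was lower than that of the sterol branch, at -0.88 against -0.22 in WT and -0.96 against -0.36 in BERKO, gaps of 0.66 and 0.60. The fatty acid enzymes were split there. Acly, Fasn and Elovl6 had their highest group mean of the 14 in WT mESC (13.12, 12.45 and 14.40). Fads1, Fads2 and Elovl5 had their lowest in WT mESC (10.96, 10.30 and 12.58), and Scd1 had its lowest in BERKO mESC (12.51). In untreated WT NPC the branches stood at 0.62 for sterol and 0.69 for fatty acid enzymes. In untreated BERKO NPC they stood at 1.26 and 0.96, the highest level of either branch in the 14 groups. In untreated mDPC the sterol branch stood at -0.84 in WT and -0.40 in BERKO, and the fatty acid branch at -0.22 and -0.32. In untreated MN the sterol branch stood at -0.38 in WT and -0.14 in BERKO, and the fatty acid branch at -0.07 and -0.28. The order of the labels was thus opposite in the 2 branch means at both stages. Of the 8 fatty acid enzymes, 3 differed upwards and 5 downwards in mDPC, and 4 and 4 in MN. With LY3201 the WT and BERKO arrays of mDPC overlapped in the fatty acid mean.

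The gap between the branches, taken with its sign, was higher in BERKO than in WT at each neural stage. The 0 of each gene is its average over these 14 groups. How near the branches lie and the sign of a gap therefore depend on the groups included, while the change of the gap between labels does not. In untreated NPC the gap lay between -0.10 and -0.03 in WT and between 0.29 and 0.30 in BERKO. In untreated mDPC it lay between -0.65 and -0.58 in WT and between -0.10 and -0.06 in BERKO, and in untreated MN between -0.37 and -0.25 in WT and between 0.07 and 0.19 in BERKO. The WT and BERKO arrays did not overlap at any of the 3 stages. With LY3201 the gaps of the groups were 0.04 and 0.24 in NPC, -0.66 and -0.15 in mDPC and -0.29 and 0.18 in MN, for WT and BERKO. Without 1 of its 2 arrays the value of -0.15 was -0.25 (without replicate 2) or -0.039 (without replicate 1), and quantile normalization gave 0.012 in untreated BERKO MN and 0.053 in BERKO MN with LY3201. Taking the median over the members of a branch in place of the mean turned the sign of the gap to 0.18 in untreated WT NPC, to 0.17 in untreated BERKO mDPC and to 0.029 in BERKO mDPC with LY3201. BERKO stayed above WT at each neural stage.

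**Figure D4:**
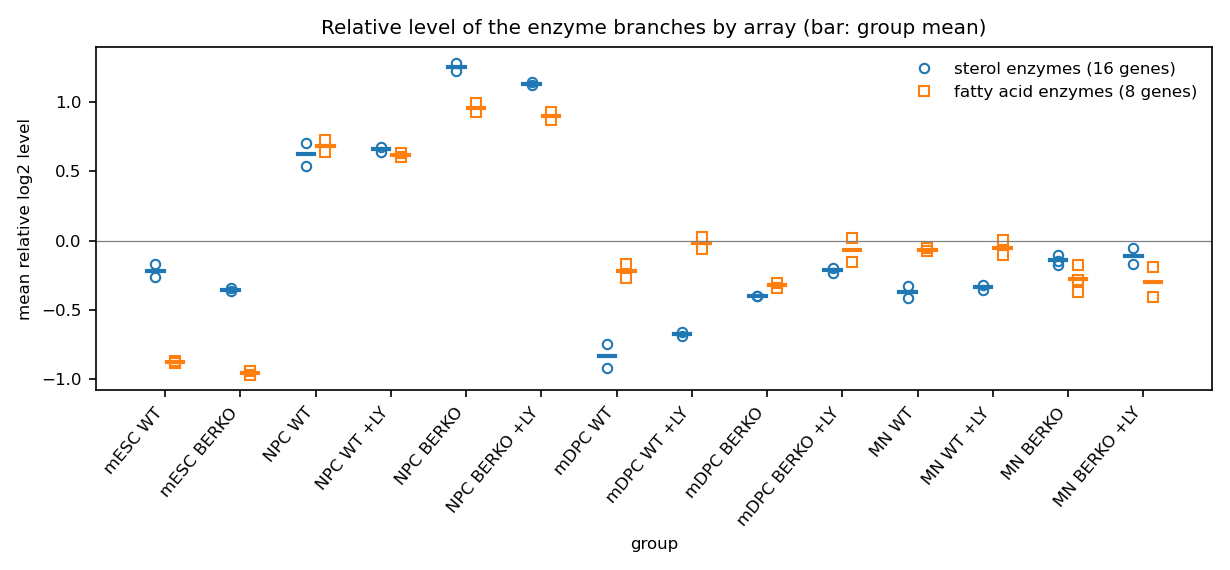
Mean relative log2 level of the 16 sterol enzymes (blue circles) and of the 8 fatty acid enzymes (orange squares) in every array of the 14 groups, where 0 is the average of each gene over the groups and bars are group means. Both branches peak in NPC, at 1.26 and 0.96 in untreated BERKO arrays, and the sterol branch lies lowest in untreated WT mDPC at -0.84.

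The branch means hide unlike genes. Over the 14 group means, the members closest to the sterol mean were Nsdhl (Pearson r = 0.98), Pmvk (0.97), Srebf2 (0.96), Lss, Insig1 and Stard4 (0.95 each), Mvk (0.94), Idi1 (0.92) and Dhcr7 (0.91). The sterol enzymes are part of that mean, while Srebf2, Insig1 and Stard4 are not, and all points share arrays and normalization. Sc5d (0.19), Hsd17b7 (-0.02), Ggps1 (-0.03) and Ebp (-0.16) did not follow it, nor did Insig2 (-0.19) and Scap (-0.04). Of the fatty acid enzymes Scd1 (0.84) and Acly (0.64) came closest, and Fads1 (0.21) and Fads2 (0.02) did not. The 10 non-members with the highest r were Rtkn2, Rab3b, Pimreg, Lockd, Acat3, G2e3, Neurl1b, Ndufs8, Gm13502 and Fzd4, between 0.958 and 0.924. The members' group means spanned between 1.09 and 7.22 log2 units from lowest to highest, with a median span of 2.77 against 1.30 over all tested genes.

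Other genes of these pathways were taken from lists, and their counts stand against the 15.7%, 13.8% and 20.8% of all genes called in untreated NPC, mDPC and MN. Of 6 tested sterol genes outside the members, 4 were higher and 0 lower in untreated BERKO NPC, 2 higher and 0 lower in mDPC, and 4 higher and 0 lower in MN, with median differences of 0.42, 0.23 and 0.35 against 0.03, 0.02 and 0.01 over all genes. They included the lipoprotein receptor Scarb1 (1.12 in NPC, 0.48 in mDPC and 0.74 in MN), Acat1, the mitochondrial thiolase (0.89, 0.78 and 0.48), and the sterol scaffold gene Erg28 (0.44 in NPC and 0.39 in MN).

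Of 7 tested genes of sterol export, storage and turnover, 4 were lower and 1 higher in untreated BERKO NPC, 1 lower and 2 higher in mDPC, and 4 lower and 3 higher in MN, with medians of -0.45, 0.07 and -0.33. The cholesterol exporter Abca1 differed by -1.40 ± 0.20 in NPC (limma adjusted p = 6.2e-05) and by -1.08 in MN. Abcg1, a second exporter, differed by -0.52 in NPC and -0.63 in MN, the ubiquitin ligase Mylip by -0.67 and -0.61, and Nr1h3, the sterol sensor LXRα, by -0.45 and -0.33. The exporter Abcg4 was higher, by 0.40 in NPC, 1.13 in mDPC and 0.58 in MN. Most of these genes are dim, and 1 of the list exceeded the negative control percentile in at least 2 arrays.

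Of 22 tested further fatty acid genes, 4 were higher and 1 lower in NPC, 3 higher and 2 lower in mDPC, and 4 higher and 4 lower in MN, with medians of 0.10, 0.02 and 0.03. Malic enzyme Me1, which supplies NADPH, was higher in NPC (0.66) and mDPC (0.62). Mid1ip1, a partner of acetyl-CoA carboxylase, was lower at all 3 stages (-0.72, -0.66 and -1.03), and its relative Thrsp was lower in mDPC (-2.38) and MN (-1.03). Of 10 tested genes of fatty acid oxidation, 1 was higher and 2 lower in NPC, 7 higher and 0 lower in mDPC, and 1 higher and 2 lower in MN, with medians of -0.19, 0.42 and 0.01. Cpt1a, the gate for fatty acids into mitochondria, differed by -1.10 in NPC and -0.64 in MN, and Cpt2 (0.71), Acadm (0.58) and Acadl (0.56) were the most raised in mDPC.

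For LY3201 against vehicle, 0 of the 29 members were called by limma in each of the 6 comparisons within a stage and genotype label, and 0 in each of the 3 differences of that effect between labels. The share of all genes called was 0.00453% in WT NPC, 0% in BERKO NPC, 0.0635% in WT mDPC, 0.113% in BERKO mDPC, 1.83% in WT MN and 0.344% in BERKO MN. For the differences of the effect between labels it was 0.499% in NPC, 0% in mDPC and 0.63% in MN. At an unadjusted p below 0.05 the members numbered 3, 6, 9, 11, 1 and 2 in these 6 comparisons, and 7, 1 and 2 in the 3 differences. Over all tested genes the shares at that p were 9.99%, 8.35%, 12.7%, 8.42%, 14.1% and 11.3%, and 12.9%, 8.36% and 14.1%, so the member counts in WT NPC and in MN of either label are near or under the share of all genes. Within the 6 comparisons the lowest adjusted p was 0.142, for Sqle in BERKO mDPC with a difference of 0.41, and among the 3 differences between labels it was 0.122, for Mvd in NPC with a value of -0.70. The largest effect within the 6 comparisons was 0.58, for Fasn in BERKO mDPC, where it read 10.04 and 10.38 untreated and 11.01 and 10.57 with LY3201.

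The 95% intervals of the differences lay within -0.52 and 0.51 for all members in WT NPC, -0.82 and 0.58 in BERKO NPC, -0.33 and 0.89 in WT mDPC, -0.34 and 1.00 in BERKO mDPC, -0.44 and 0.69 in WT MN, and -0.61 and 0.54 in BERKO MN. Single intervals that leave out 0 are those counted above at an unadjusted p below 0.05.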

How the data were processed

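RNA of 29 mouse cell samples was measured on Clariom D (MTA 1.0) arrays. Per the labels, the authors' log2 values come from the SST-RMA method of Affymetrix Expression Console 1.4, which corrects background, normalizes between arrays and summarizes probes per transcript cluster. The submitters' processing notes also name RMA and Transcriptome Analysis Console. The deposited log2 values were used as given. The genome build of the clusters is not given in the sources used here. Of 65956 clusters, 30604 carry 1 gene symbol, for 30142 genes, 827 of them updated through the gene ID. For 355 genes with several clusters the brightest was used. Genes above their array's median in at least 2 arrays were tested (22063).

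limma 3.58.1 (R 4.3.3) fitted 1 mean per group to all arrays, with 15 residual and 3.303 prior degrees of freedom, for 25 contrasts. Adjusted p-values are Benjamini-Hochberg over all tested genes, 2-sided, threshold 0.05. The scripts were tested on simulated data. Arrays of 1 group correlated at 0.9944 to 0.9985, and their number limits the precision. The members and lists were chosen with earlier results of these data known. Array values are given for members with the largest called changes per role, and other lists by counts with up to 4 called genes. Alternatives were no filter, quantile normalization, a trended and robust prior, a filter at each array's 75th percentile, the compared groups alone, other clusters, same-number arrays averaged, and each array left out. LY3201 averaged over labels was added after seeing the data. Promoters were from RefSeq. Figures were drawn with matplotlib 3.10.9.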

Additional observations from a re-analysis of the deposited data

Results flagged for a closer look

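The change from 1 stage to the next differed between the BERKO and WT labels, by limma's test of the difference itself, for 17 of the 29 genes from mESC to NPC, for 8 from NPC to mDPC and for 5 from mDPC to MN. Of all tested genes 9.6%, 8.68% and 12.5% were called for these step differences, so the last count stands nearest its share. In the first step the 17 rose more, or fell less, in BERKO, with Fdps (1.27), Mvd (1.16), Mvk (1.12), Lss (1.11) and Srebf2 (1.09) as the largest differences. In the second step the 8 fell more, or rose less, in BERKO, with Mvk (-1.22) and Scd1 (-1.02) as the largest. In the third step 4 were negative, with Elovl6 (-0.88) the largest, and Fads2 (0.61) was positive. Both neighbouring steps use the same arrays of the stage between them. Of these calls 12, 1 and 2 were kept under each setting and left-out array: in the second step that was Mvk, and in the third Dhcr7 and Elovl6.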

How the results depend on the processing

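No called gene changed direction under any alternative run. Over all alternatives, single genes lost a call in 293 cases, gained one in 61 and kept their side of the threshold in 2796. Under the alternatives other than a left-out array, counts of called members moved by over 1.5 times in 8 cases and by less in 167. With the compared groups alone, the counts were 1 between genotype labels in untreated mESC, 10 in untreated MN and 3 in MN with LY3201, and 4 and 3 for the differences of the steps from NPC to mDPC and from mDPC to MN, where fewer arrays leave fewer degrees of freedom. Quantile normalization gave 4 for the step difference from NPC to mDPC, the next highest clusters gave 3 for that from mDPC to MN, and averaging same-number arrays gave 1 in mESC. The cause was not tested for these.

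With 1 array left out, counts between labels ranged from 1 to 1 in mESC, 13 to 17 in NPC, 10 to 13 in mDPC and 10 to 18 in MN untreated, and from 13 to 14, 12 to 13 and 7 to 13 with LY3201. The WT steps ranged from 22 to 24, 21 to 25 and 15 to 17, the BERKO steps from 26 to 26, 22 to 24 and 17 to 20, and the step differences from 13 to 16, 2 to 8 and 3 to 5. LY3201 calls stayed at 0.

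The gap between the branches kept the BERKO groups above the WT groups at the neural stages under each setting. Quantile normalization moved it to 0.79 in mESC of both labels, 0.12 in WT NPC with LY3201, 0.37 in BERKO NPC, -0.41 in WT MN, and 0.012 and 0.053 in BERKO MN without and with LY3201. The median over members gave 0.34 and 0.35 in WT and BERKO mESC, 0.18, 0.33, 0.81 and 0.72 in NPC (WT, WT with LY3201, BERKO, BERKO with LY3201), -0.45, -0.58, 0.17 and 0.029 in mDPC, and -0.65, -0.59, 0.25 and 0.43 in MN, in that order. Members above the negative control percentile alone gave 0.56 in WT mESC, 0.42 and 0.34 in BERKO NPC without and with LY3201, and -0.39 and -0.36 in WT MN. With 1 array left out the gap of BERKO mDPC with LY3201 ranged from -0.25 to -0.039.

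The labels carry no replicate numbers that groups share. No paired analysis was possible because the replicate numbers were given in accession order. Groups of 2 or 3 arrays limit what can be called, and Ebp, Dhcr7, Mvk, Hsd17b7 and Stard4 are dim against the negative controls.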

Other observations

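Ebp, the member with the lower signal in BERKO arrays at all 4 stages, lies on chromosome X. Of the 5 tested protein-coding genes on either side of it in RefSeq order, 5 of 10 were lower in BERKO in untreated NPC, mDPC and MN and in the 3 LY3201 comparisons, 4 of 10 in mESC, and 0 were higher in any of the 7. In untreated NPC the lower neighbours were Wdr13 (-1.12), Porcn (-0.96), Ftsj1 (-0.96), Rbm3 (-0.84), an RNA-binding protein induced by cold, and Tbc1d25 (-0.60). The neighbours called in none of the 7 were Glod5, Was, Slc38a5, Ssxb2 and Ssxb8. Their highest arrays read 4.76, 5.02, 4.24, 3.69 and 3.74, under the negative control percentile of every array, so a change in them could hardly be seen. Of the 556 tested genes of chromosome X, 5.94% were lower in mESC, 11.5% in NPC, 11.3% in mDPC and 15.3% in MN. These neighbours were looked at after the Ebp values were seen.

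LY3201 called none of the 29 genes, but in mDPC most differences were positive, 26 of 29 in WT and 27 of 29 in BERKO, where 59.5% and 46.2% of all tested genes were positive. Averaged over both labels, a comparison chosen after seeing the data, the median over the 29 genes in mDPC was 0.19 against 0.02 over all genes, 26 were positive, and 0 were called, against 0.109% of all genes. The same average was positive for 9 of 29 in NPC and 17 of 29 in MN, with 0 called in either.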
